A study of Rattus norvegicus with 8 samples.

Results

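The proteins that release calcium from the endoplasmic reticulum and let calcium in when that store runs low were examined in the rat incisor enamel organ, the cell layers that build and then harden enamel. The 9 genes were Stim1, Stim2, Orai1, Itpr1, Itpr2, Itpr3, Ryr1, Ryr2 and Ryr3. Probes were taken by gene symbol, which found 11 probes of 7 genes among the 22523 probes of the array. Orai1 and Ryr2 were not found under those symbols. The gene ID placed 1 probe of Orai1 under the older name RGD1311873 and 4 probes of Ryr2 under LOC689560, so that all 9 genes, of 21526 gene names on the array, were measured, with 16 probes in all.

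Total RNA came from 4 Wistar rats aged 4 weeks, given as male Wistar Hannover in the study's methods, with no genetic change or treatment in either group. Each rat gave a secretory-stage sample, from cells that lay down enamel matrix, and a maturation-stage sample, from cells further along the same continuously growing tooth. Each of the 8 samples was hybridized to its own Illumina RatRef-12 v1 array. The samples were microdissected tissue and not sorted cells, so a fall in a gene can come from fewer cells of a type or from less RNA per cell, which cannot be told apart here.

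In most cells, hormones and growth factors activate phospholipase C, which makes inositol trisphosphate (IP3). IP3 opens IP3 receptors (Itpr1, Itpr2, Itpr3) in the membrane of the endoplasmic reticulum, while ryanodine receptors (Ryr1, Ryr2, Ryr3) are the release channels best known from muscle and nerve. When the store empties, the sensors STIM1 and STIM2 gather in parts of its membrane that lie close to the plasma membrane. There they open the ORAI channels of the plasma membrane, a route called store-operated calcium entry, and SERCA pumps refill the store. Ameloblasts move large amounts of calcium into enamel, and loss of STIM1 or ORAI1 function in people is known to cause defective enamel.

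Signals are given as log2 values after background correction and quantile normalization, and a log2 fold change is the maturation-stage mean minus the secretory-stage mean. A probe was called changed at an adjusted p below 0.05 (limma, Benjamini-Hochberg over all probes) with at least a 1.8-fold difference, and detected on an array at a detection p below 0.05. The level of one probe was not set against that of another. The arrays detected 10667 to 10941 probes in the secretory stage and 11164 to 11450 in the maturation stage. The lowest correlation between arrays of one stage was 0.990 and the highest between stages was 0.949. The maturation-stage ameloblast genes Klk4, Slc24a4, Cftr and Car6 rose in the maturation stage by their brightest probes (a second probe of Cftr was detected on no array), and of the 4 secretory-stage markers the matrix protein Enam and the matrix protease Mmp20 fell. Enam varied widely among maturation arrays (SD 1.95, n = 4), and the matrix proteins Amelx and Ambn were not called, with log2 fold changes of -0.53 and -0.36.

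Of the 16 probes, 5 were called higher and 1 lower in the maturation stage, against 4.6% and 3.15% of all probes. These 6 probes belonged to 6 genes and were all among the 11 found by symbol. At any fold, 8 of the 16 passed the adjusted p, against 26.9% of all probes, and for 8 the stages did not overlap, against 27.7%. Stim1, Stim2, Itpr2, Ryr1 and Ryr3 were higher in the maturation stage, and Itpr1 was lower. Of the 16 probes, 6 were detected on all 8 arrays and 5 on none.

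The promoters shown here are those of Itpr1, the member with the largest change, and of the sensors Stim1 and Stim2, which rose together. They are the 250 bases before the annotated start from RefSeq (GRCr8), read 5′ to 3′ on the sense strand. They lie, for Stim1, at chr1:166067964-166068213 on the plus strand, for Stim2 at chr14:61217081-61217330 on the minus strand and for Itpr1 at chr4:142743190-142743439 on the plus strand. Capitals mark matches on either strand to TATAA (letters of a core promoter element), to CCAAT (bound by the factor NF-Y), to GGGCGG (a GC box), to GGAAA (the core of NFAT sites) or to TGTGGT (the core of RUNX sites); none of these overlap here.
Stim1: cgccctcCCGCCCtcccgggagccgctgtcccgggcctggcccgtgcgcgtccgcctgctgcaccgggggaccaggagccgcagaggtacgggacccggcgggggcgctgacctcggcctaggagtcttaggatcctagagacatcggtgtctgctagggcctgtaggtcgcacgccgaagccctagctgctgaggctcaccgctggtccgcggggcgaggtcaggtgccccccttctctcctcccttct
Stim2: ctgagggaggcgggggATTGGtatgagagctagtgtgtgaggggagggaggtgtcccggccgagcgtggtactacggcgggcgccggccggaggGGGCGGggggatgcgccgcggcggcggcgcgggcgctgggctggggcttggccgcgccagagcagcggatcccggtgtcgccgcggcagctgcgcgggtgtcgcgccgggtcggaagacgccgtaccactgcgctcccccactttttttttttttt
Itpr1: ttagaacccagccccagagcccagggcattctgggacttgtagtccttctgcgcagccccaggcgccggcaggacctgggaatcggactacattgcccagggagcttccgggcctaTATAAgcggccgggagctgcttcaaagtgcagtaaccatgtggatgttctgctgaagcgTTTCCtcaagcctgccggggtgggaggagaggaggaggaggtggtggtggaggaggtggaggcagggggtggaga
GC content was 72% for Stim1, 72.4% for Stim2 and 62% for Itpr1. Both Stim windows held 1 GC box, which 30.5% of the 33469 rat promoter windows of this length hold, and Stim2 also held 1 CCAAT, found in 34.0%. The Itpr1 window held no GC box but 1 TATAA, found in 24.0%, starting 134 bases before the annotated start, and 1 GGAAA, found in 56.9%. TGTGGT, found in 14.5% of windows, was in none of these 3. Across the other members, every gene's window held at least 1 GC box. A match is a run of letters and not a shown binding site.

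Both calcium sensors of the store rose. The Stim1 probe gave 11.36, 11.36, 11.21 and 11.26 in secretory replicates 1 to 4 and 12.78, 13.09, 13.01 and 13.11 in maturation replicates 1 to 4. All 4 maturation arrays lay above all 4 secretory arrays, and replicate 1 was the lowest of the maturation stage. Stim1 was 3.25-fold higher in the maturation stage (95% interval 2.85 to 3.70), a log2 fold change of 1.70 (SE 0.083, n = 4 per stage; adjusted p = 5.9e-07, limma). The difference had the same sign in each rat, from 1.42 in rat 1 to 1.85 in rat 4.

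STIM2 is the sensor that responds to smaller falls in store calcium. Its probe gave 8.66, 8.72, 8.74 and 8.32 across the secretory replicates, with replicate 4 the lowest, and 10.47, 10.67, 10.43 and 10.57 across the maturation replicates. The stages again did not overlap. Stim2 was 3.80-fold higher in the maturation stage (95% interval 3.24 to 4.45), a log2 fold change of 1.93 (SE 0.101, n = 4 per stage; adjusted p = 8.8e-07, limma). The change of Stim2 exceeded that of Stim1 by 0.23 on the log2 scale, and this difference did not pass the exact two-sided permutation test (p = 0.114, adjusted p = 0.114 over 3 pairs). With median scaling in place of quantile normalization it was 0.37 and passed (adjusted exact permutation p = 0.0286).

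Orai1, which encodes the pore of the entry channel, moved much less. Its probe gave 8.95, 8.70, 8.64 and 8.83 in the secretory stage and 9.07, 8.97, 9.02 and 9.06 in the maturation stage. The stages did not overlap, but secretory replicate 1 lay just below maturation replicate 2. The log2 fold change was 0.25 (95% interval 0.08 to 0.42, SE 0.075, n = 4 per stage; adjusted p = 0.035, limma), a 1.19-fold difference that was under the 1.8-fold threshold. Over all alternatives it ranged from 0.20 without secretory replicate 3 to 0.61 with median scaling. The adjusted p was 0.092 with normexp without negative controls, 0.058 with the test named in the methods, and between 0.051 and 0.092 on leaving out any one array other than secretory replicate 1.

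**Figure D1:**
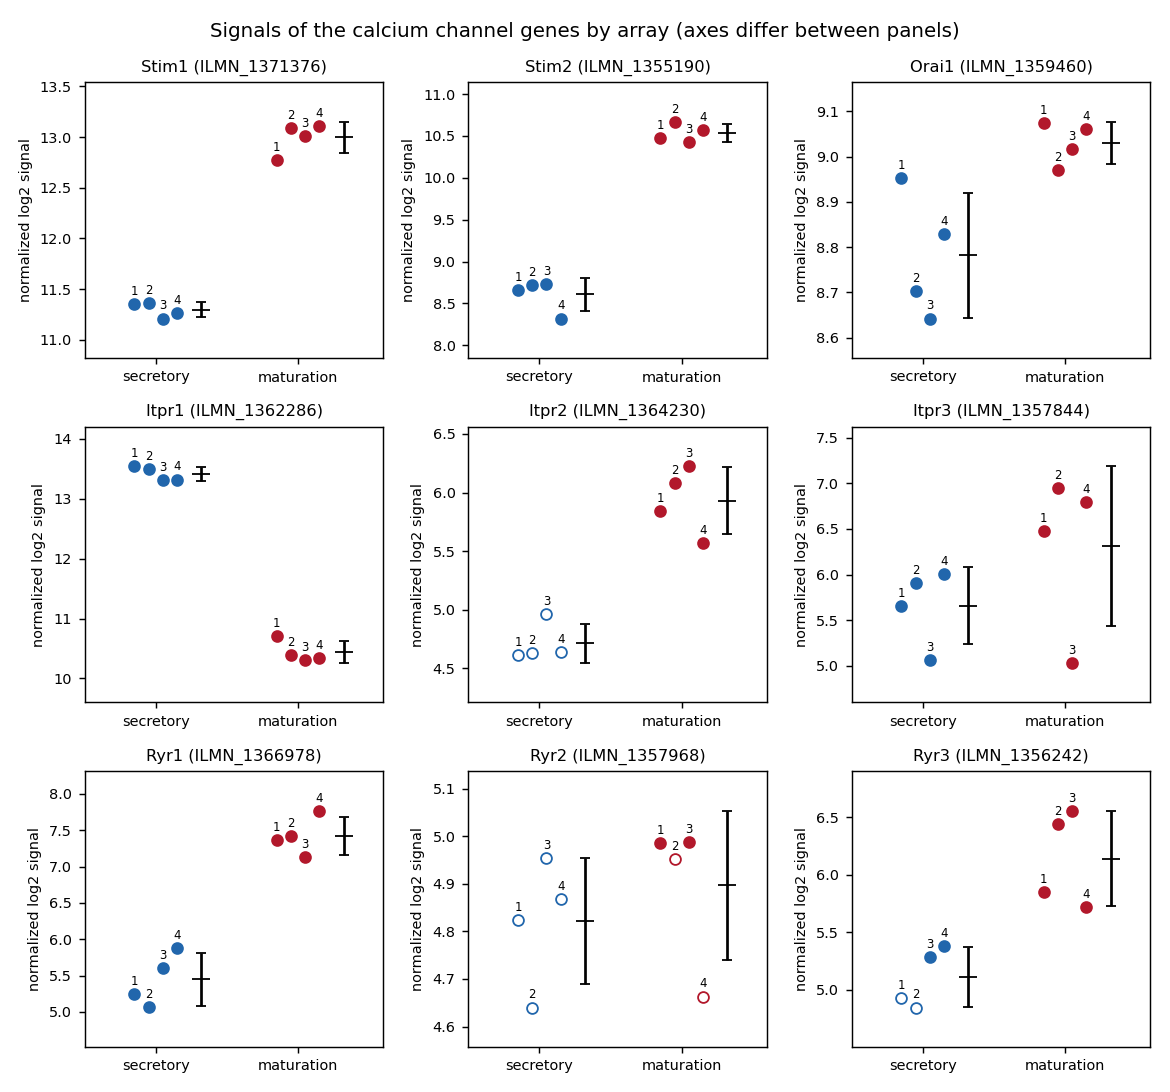
Normalized log2 signal of each gene on each array, by its probe with the highest mean; numbers beside the points are the replicate (rat), open points were not detected, and bars are the mean and SD of 4 arrays. Stim1 and Stim2 were higher on every maturation array, Itpr1 was lower on every one, and Itpr3 overlapped through maturation replicate 3; the vertical axes differ between panels.

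Among the IP3 receptors, Itpr1 fell while Itpr2 rose. The Itpr1 probe gave 13.54, 13.49, 13.31 and 13.32 across the secretory replicates and 10.71, 10.39, 10.31 and 10.35 across the maturation replicates. Every maturation array lay far below every secretory array, and maturation replicate 1 was the least reduced. Itpr1 was 7.84-fold lower in the maturation stage (95% interval 6.71 to 9.16), a log2 fold change of -2.97 (SE 0.10, n = 4 per stage; adjusted p = 7.2e-08, limma). Within rats, the difference ran from -3.09 to -2.83. In the deposited intensities, before any correction, the secretory arrays read 9285 to 11073 and the maturation arrays 1400 to 2248.

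Itpr2 was detected on all 4 maturation arrays and on none of the secretory arrays. The values were 4.62, 4.63, 4.96 and 4.64 in the secretory stage and 5.84, 6.08, 6.22 and 5.57 in the maturation stage. The stages did not overlap. As processed here, the rise of Itpr2 in the maturation stage was at least 1.85-fold, counted against the dimmest detected probe of each secretory array. The fitted log2 fold change was 1.22 (SE 0.141, n = 4 per stage, adjusted p = 0.00014, limma). It fell under 1.8-fold with an offset of 50 (0.66) or without background correction (0.43), while the adjusted p was at most 0.0034 under every alternative.

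Itpr3 was detected on all 8 arrays but varied more than the other receptors. It gave 5.65, 5.90, 5.06 and 6.003 in the secretory stage and 6.47, 6.95, 5.03 and 6.80 in the maturation stage. Replicate 3 was the lowest of each stage, and its maturation array lay below all secretory arrays, so the stages overlapped. Both values of replicate 3 lay near background, with a detection p of 0.040 in the secretory and 0.039 in the maturation stage. The log2 fold change was 0.66 (95% interval -0.23 to 1.55, SE 0.395, n = 4 per stage; adjusted p = 0.30, limma). Within rats 1 to 4 the difference was 0.82, 1.04, -0.03 and 0.79. With the rat as a replicate block the same log2 fold change of Itpr3 had an adjusted p of 0.029 (limma), under the threshold, but it stayed under 1.8-fold. Without maturation replicate 3 it was 1.08 and passed both thresholds (adjusted p = 0.0072). The stage change of Itpr3 lay 3.63 above that of Itpr1 on the log2 scale (exact two-sided permutation test, p = 0.0286, adjusted p = 0.0429 over 3 pairs), where 0.0286 is the smallest p that 4 against 4 arrays allow. That test does not use the pairing of the samples by rat. Within rats the difference was above 0 in 4 of 4, but an exact sign-flip permutation over 4 rats cannot go below p = 0.125, and gave p = 0.125 (adjusted p = 0.19).

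The ryanodine receptors were read by several probes each, and those of Ryr1 and of Ryr3 disagreed. For Ryr1, the skeletal muscle receptor, probe ILMN_1366978 was detected on all 8 arrays, with 5.25, 5.06, 5.60 and 5.88 in the secretory stage and 7.37, 7.42, 7.13 and 7.77 in the maturation stage. The stages did not overlap, and replicate 4 was the highest of each. This probe was 3.93-fold higher in the maturation stage (95% interval 2.93 to 5.26), a log2 fold change of 1.97 (SE 0.187, n = 4 per stage, adjusted p = 3.8e-05, limma). Its secretory values lay near background, with a detection p of up to 0.045. The log2 fold change was 1.40 with an offset of 50 and 0.95 without background correction, and the probe was still called. The other 2 probes of Ryr1, ILMN_1358258 and ILMN_1355014, were detected on no array, with fitted log2 fold changes of 0.20 (adjusted p = 0.035, limma) and 0.04. Where the probes lie on the transcript is not given in the sources used here.

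Of the skeletal muscle markers beside Ryr1, 11 of 13 were on the array and 9 were detected. Des was called higher, at least 2.13-fold, and Actn3 lower, by a log2 fold change of -1.57, while Myh2 and Myh4 were detected on no array. The summed normalized signal of the list was 462 to 825 on secretory arrays and 419 to 1313 on maturation arrays. The part of muscle tissue in the Ryr1 values was not tested. Of 8 smooth and cardiac muscle markers none was called, with 2 higher and 0 lower at an adjusted p below 0.05 at any fold (limma), and of 10 neuron markers 1 was called higher and 1 lower.

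Ryr3, the receptor of brain and many other tissues, was called by probe ILMN_1356242. It gave 4.93, 4.84, 5.28 and 5.38 in the secretory stage, where replicates 3 and 4 were detected, and 5.85, 6.44, 6.55 and 5.72 in the maturation stage, where all 4 were. The stages did not overlap. The log2 fold change was 1.03 (95% interval 0.57 to 1.49, SE 0.204, n = 4 per stage; adjusted p = 0.0038, limma), or 2.05-fold. It fell below 1.8-fold with normexp without negative controls (0.80), with an offset of 50 (0.62) and without background correction (0.38). Probe ILMN_1370932 of Ryr3 was detected on 1 array of each stage and ILMN_1370859 on none, with log2 fold changes of 0.01 and 0.06.

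By the brightest probe of each gene, the log2 change of Ryr3 was 0.94 smaller than that of Ryr1. This difference of -0.94 had p = 0.0286 in the exact two-sided permutation test (adjusted p = 0.0429 over 3 pairs). The other probes, detected on few or no arrays, had changes of 0.20 and 0.04 for Ryr1 and 0.01 and 0.06 for Ryr3. The difference therefore holds for the chosen probes only. Within rats the difference was below 0 in 4 of 4, with an exact sign-flip permutation p of 0.125 (adjusted p = 0.19). The Ryr3 probe was detected on only 2 secretory arrays, and the secretory values of the Ryr1 probe also lay near background. This difference is only as firm as those levels, and without background correction it was -0.57. Ryr2, the cardiac receptor, showed no called probe. Its 4 probes had log2 fold changes of -0.15 (ILMN_1370997), 0.08 (ILMN_1357968), -0.05 (ILMN_1355630) and -0.05 (ILMN_1361942), with limma intervals that stayed between -0.41 and 0.29. ILMN_1370997 was detected on 1 secretory array and ILMN_1357968 on 2 maturation arrays; the other 2 probes were detected on none. A low signal on this array is near its background, so absence of Ryr2 RNA cannot be read from it.

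**Figure D2:**
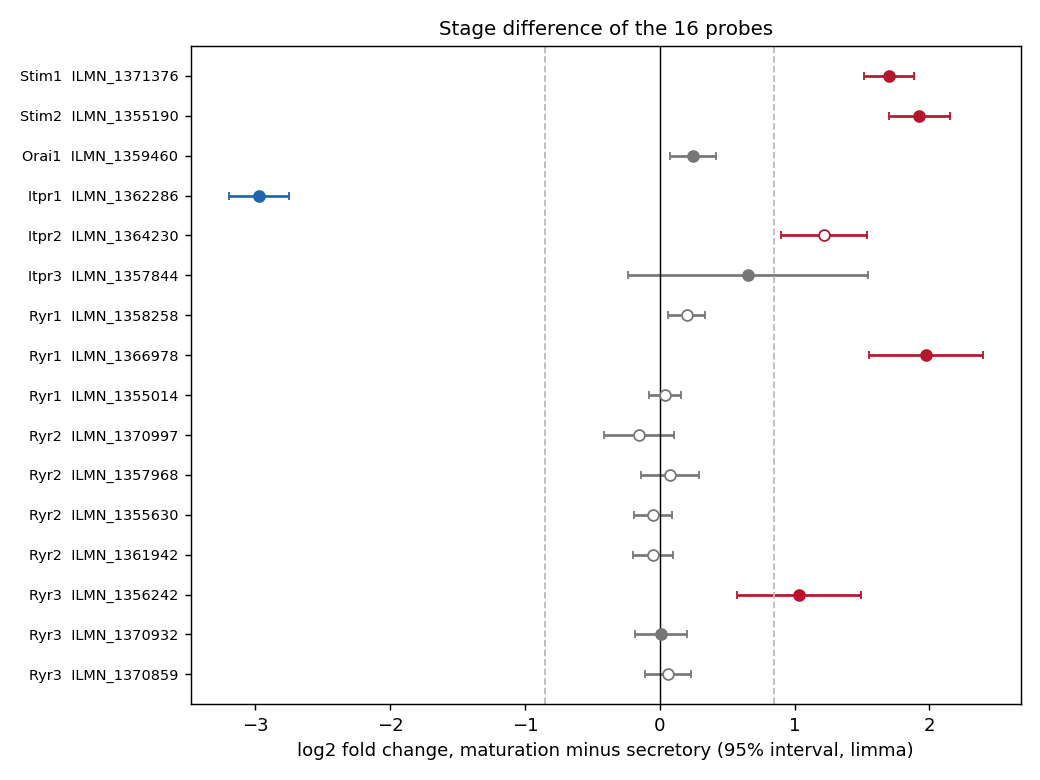
Log2 fold change of all 16 probes, maturation minus secretory, with the 95% interval from limma; red points were called higher, the blue point lower and grey points were not called, dashed lines mark 1.8-fold, and open points were not detected on any array of at least 1 stage. Itpr1 at -2.97 stands on the left, with Ryr1, Stim2 and Stim1 at 1.97, 1.93 and 1.70 on the right, and all 4 probes of Ryr2 near 0.

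The number of beads behind a member value ran from 24 to 67 per array, and its bead-to-bead standard error was at most 6.14% of the signal. Leukocyte markers also moved with the stage. Of 8 markers of macrophages and leukocytes on the array, 5 were called higher and 0 lower (7 and 0 at an adjusted p below 0.05 at any fold, limma), with a median log2 fold change of 1.22, and their summed normalized signal was 3455 to 4161 on secretory arrays and 9216 to 11889 on maturation arrays. Of 4 endothelial markers, 1 was called higher. Leukocytes use STIM and ORAI proteins too, and their part in the member values was not tested.

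The other genes of the pathway were described by 5 lists with 101 genes, of which 85 were on the array and 69 were detected. Of these 85 genes, 8 were called higher and 6 lower, beside 4.6% and 3.15% of all probes. Their median log2 fold change was 0.01, beside -0.01 over all probes. With median scaling, 13 of these genes were called higher and 4 lower, where 1610 and 465 of all probes were. Partners of store-operated entry had 3 called higher and 1 lower of 18, with a median of 0.28. With an adjusted p below 0.05 at any fold (limma), 8 of them were higher and 1 lower, beside 26.9% of all probes in either direction. Orai2, a second entry channel subunit, had a mean of 5.21 ± 0.379 on secretory arrays, 2 of which detected it, and 7.48 ± 0.249 on maturation arrays (SD, n = 4 each), a log2 fold change of 2.27 (SE 0.189, adjusted p = 1.6e-05, limma). It was 1.57 with an offset of 50 and 1.07 without background correction, and Orai2 was still called. Tmem178a, a membrane protein of the endoplasmic reticulum that restrains store-operated entry in bone-resorbing cells, rose from 9.72 ± 0.242 to 11.72 ± 0.133 (log2 fold change 1.999). Esyt1, a tether between the endoplasmic reticulum and the plasma membrane, had a log2 fold change of 0.95, which lost its call without maturation replicate 2 (0.81) or 3 (0.83). Cav1, the coat protein of caveolae, fell (log2 fold change -1.24) by its brighter probe, while its second probe, ILMN_1376114, was at -0.77, under 1.8-fold (adjusted p = 0.0011, limma).

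Beside the IP3 receptors, the list of genes that make IP3 or act on its receptors had 2 of 27 called higher and 1 lower, with a median log2 fold change of 0.03. The phospholipases Plcg2 and Plcb3 rose, by log2 fold changes of 1.25 and 1.03. Plcb3 was detected on only 1 secretory array, and its change was 0.36 without background correction. The phospholipases Plcg1 and Plcd3 were at -0.76 and -0.41, both with an adjusted p under the threshold but under 1.8-fold. At any fold, 6 genes of this list were higher and 5 lower at an adjusted p below 0.05 (limma). Cabp1, a calcium-binding protein that inhibits IP3 receptors, was detected on all secretory arrays and on no maturation array. As processed here it was at least 1.98-fold lower, counted against the dimmest detected probe of each maturation array. The fitted log2 fold change was -1.18 (adjusted p = 4.1e-05, limma), and -0.41 without background correction. Of 10 genes of the ryanodine receptor complex, none was called higher and Asph, whose products include junctin and an aspartyl hydroxylase that this probe was not shown to tell apart, was called lower, at -0.87, with a median of -0.05. At an adjusted p below 0.05 at any fold, 0 of the 10 genes of this list were higher and 3 lower (limma), beside 26.9% of all probes in either direction. Asph lost its call without maturation replicate 1 (-0.81) or 2 (-0.84), and with cyclic loess (-0.80) or median scaling (-0.57).

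Genes that fill and buffer the store were called in both directions, with 2 of 16 higher, 2 lower and a median log2 fold change of 0.04. With an adjusted p below 0.05 at any fold (limma), 5 were higher and 4 lower, beside 26.9% of all probes. Atp2a2, the SERCA pump of most tissues, rose by 1.14 (SE 0.077), while Nucb2 and Rcn2, calcium-binding proteins of the secretory pathway, fell by 1.76 and 1.46 on the log2 scale. The pump Atp2a3 passed the thresholds at 0.99 (adjusted p = 0.042, limma) although its stages overlapped, and it lost the call with the test named in the methods (adjusted p = 0.13) and on leaving out any of 6 arrays in turn, namely maturation replicates 1 to 3 and secretory replicates 1, 3 and 4, where the log2 fold change ran between 0.79 and 1.09. The abundant chaperones Calr and Canx, which bind store calcium, had log2 fold changes of 0.08 each.

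Downstream of calcium entry, calcineurin dephosphorylates NFAT transcription factors. Of 14 genes on that list, 1 was called higher and 1 lower, with a median log2 fold change of -0.22. With an adjusted p below 0.05 at any fold (limma), 2 were higher and 5 lower, beside 26.9% of all probes. Rcan1, an inhibitor of calcineurin that is itself a known NFAT target, rose from 9.65 ± 0.137 to 13.46 ± 0.233 (SD, n = 4 per stage), a 14.0-fold difference (95% interval 11.7 to 16.9; log2 fold change 3.81, SE 0.119, adjusted p = 4.8e-08, limma). Cabin1, another calcineurin inhibitor, fell by 0.91 on the log2 scale. The NFAT gene Nfatc3 was at -0.56 and the calcineurin regulatory subunit Ppp3r1 at -0.48, both with an adjusted p under the threshold but under 1.8-fold. Several of the list calls depended on the processing, some of them close to 1.8-fold. Without background correction Esyt1, Plcg2, Plcb3, Cabp1, Asph, Atp2a3 and Cabin1 fell under 1.8-fold. So did Esyt1, Plcb3, Cabp1, Asph and Atp2a3 with an offset of 50, and Plcb3 and Asph with normexp without negative controls. Cabin1 also did with median scaling (-0.58). Of these genes, Plcg2 and Cabp1 were further from 1.8-fold as reported, at log2 fold changes of 1.25 and -1.18.

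**Figure D3:**
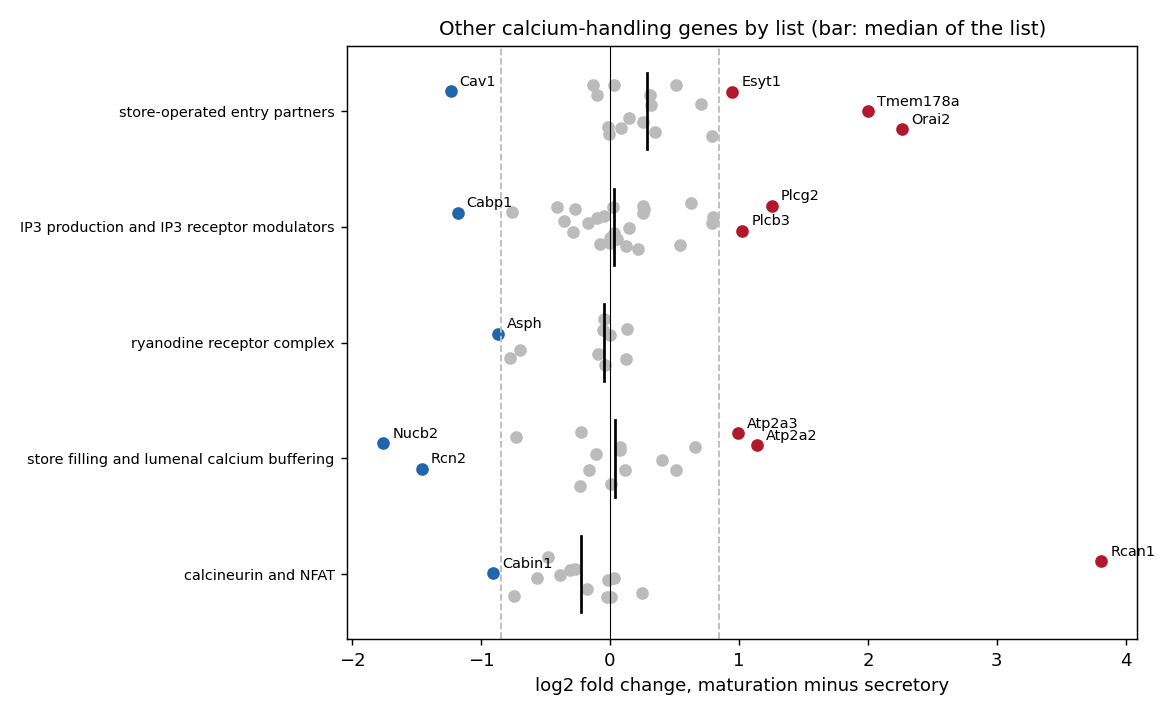
Log2 fold change, maturation minus secretory, of the genes of the 5 calcium-handling lists, each gene by its probe with the highest mean signal; red and blue points were called higher and lower, grey points were not called, dashed lines mark 1.8-fold and the black bar is the median of a list. The medians lie between -0.22 and 0.28, and Rcan1 at 3.81 lies farthest to the right.

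For each called member, the 3 named genes closest to it across the 8 arrays were found by the root mean square distance between mean-centred log2 signals, over 11233 probes detected on at least 4 arrays. Itpr1 was closest to Fkbp5, a co-chaperone of steroid receptors, at a distance of 0.0515, then to Cobl, an actin nucleator, and Tesc, a calcium-binding protein. Stim1 was closest to Prkag2, a subunit of AMP-activated protein kinase, at 0.0695, then to Eif4e3 and Chchd10. Stim2 was closest to Arhgef19 at 0.0725, then to Tm7sf2, a sterol reductase, and Cyfip2. For Ryr1 the distances were wider, from 0.145 for Ppp1r14c to 0.183 for Cited2, with Cib2 between them. Itpr2 lay nearest to Tmem273, Medag and Prkch, and Ryr3 to Higd1b, Mcam and B4galnt3. These distances cover 4 arrays per stage, so most of the likeness is a like difference between the stages.

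The split between higher and lower calls depended on the scaling. Over all probes, 1035 were called higher and 710 lower, or 59.3% higher, against 77.6% higher with median scaling. Under the 16 alternatives, Stim1 stayed between 1.67 and 1.88, Stim2 between 1.71 and 2.26, Itpr1 between -3.08 and -2.83 and the detected Ryr1 probe between 0.95 and 2.19, and these 4 genes were called under all of them. The Itpr2, Itpr3, Orai1 and called Ryr3 values kept their sign under every alternative, and their calls changed only as given above.

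**Figure D4:**
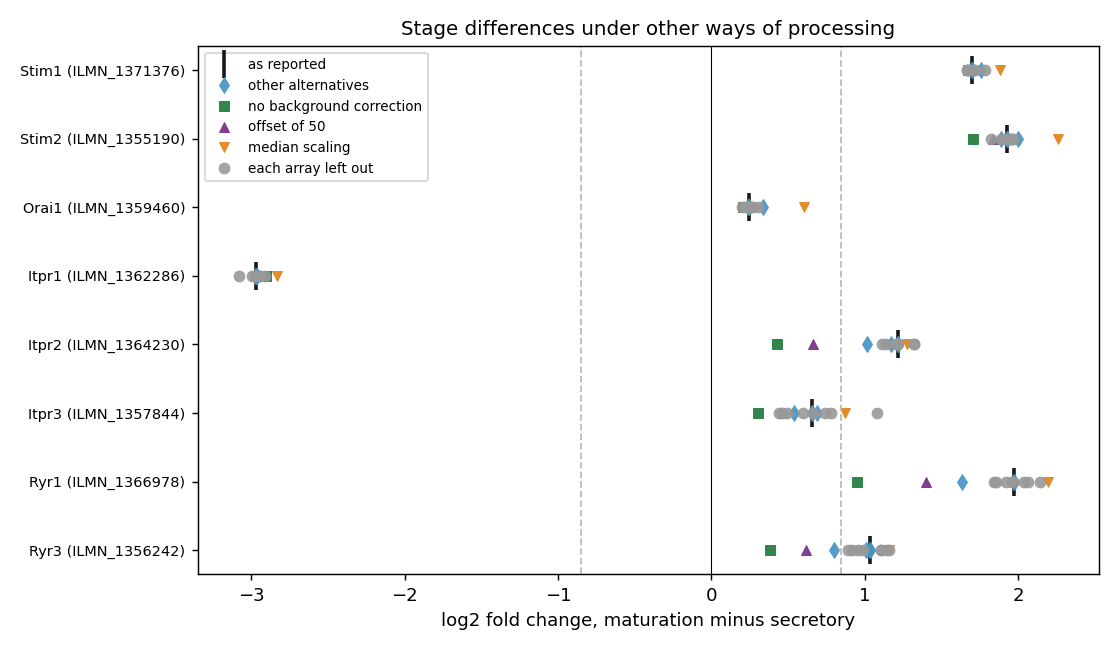
Log2 fold change, maturation minus secretory, of the called probes and of Orai1 and Itpr3 as reported and under 16 alternatives; dashed lines mark 1.8-fold. Without background correction, the values of the dim probes of Itpr2, Itpr3, Ryr1 and Ryr3 were the smallest, at 0.43, 0.30, 0.95 and 0.38.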

How the data were processed

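The samples were 8 total RNA samples of enamel organ, 4 per stage, each read on 1 Illumina RatRef-12 v1 array. In the table the authors deposited, each probe has on each array an average bead intensity without background subtraction or normalization, a detection p-value, a bead number and a bead standard error. The software for bead summary and the genome build are not given in the sources used here, and a chromosome of a probe in the array annotation has no stated build. Stage and replicate came from titles and descriptions; for maturation replicates 2, 3 and 4 the source field gives the secretory stage, unlike their title, description and tissue.

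In limma 3.58.1 (R 4.3.3), neqc corrected and normalized the signals (negative controls inferred from detection p-values, an offset of 16, quantile normalization and log2). The fit (lmFit, eBayes) used all 22523 probes, which were called at an adjusted p below 0.05 and 1.8-fold. A probe undetected on all arrays of a stage is given by a bound, set on each of those arrays by the dimmest detected probe or the probe's own value, whichever is higher. Current symbols came from a RefSeq gene table (GRCr8) by gene ID, which matched 17430 probes, and otherwise from the array. Permutations were run in scipy 1.17.1 under Python 3.11.15. The scripts were tested on simulated data. Arrays of one stage came from different rats, and their number limits the precision.

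Since both stages were taken from every rat, samples with the same number are pairs. Over 11233 probes, the 2 samples of rats 1 to 4 deviated from their stage means together, with correlations of 0.195, 0.129, 0.219 and 0.234. Mean correlations between rats lay from -0.0833 to -0.0426. Centring on the stage means largely fixes these from the values within rats, so they add no separate evidence. The methods do not use a block, so a fit with the rat as block was kept as an alternative. Further alternatives changed the background correction (normexp without negative controls, or none), the offset (50), the normalization (cyclic loess or scaling by the median), the probes tested (a detection filter) and the test (that of the methods), or left out each array in turn. For the differences between members, exact sign flips of the within-rat values were added after the data were seen. The members and the lists were chosen with earlier results of these data known. Named were all member probes, in each list the called genes with the largest change, up to 4, and for each called member its 3 nearest genes. Calr, Canx, Plcg1, Plcd3, Nfatc3 and Ppp3r1, and the marker genes, were named after their values were seen. Each listed gene was taken by its probe with the highest mean. Promoter windows came from a RefSeq table (GRCr8). Protein sequences and the sequences of the array probes were not used here.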

Additional observations from a re-analysis of the deposited data

Results flagged for a closer look

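One member value stood apart from its group. For the Ryr2 probe ILMN_1357968, maturation replicate 4 was at 4.66, against 4.95 to 4.99 in the other 3 maturation replicates, and the probe was undetected on that array. Of 19 sets of 4 values examined, 1 was marked in this way, where chance gives about 1 in 20 (0.95 sets). The probe was not called changed.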

How the results depend on the processing

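The number of called members was 6 as reported and 4 to 7 under the alternatives, with 4 without background correction or with an offset of 50, and 7 without maturation replicate 3. Without background correction, 526 probes were called higher and 397 lower, against 1035 and 710, and the lists had 4 genes higher and 3 lower, against 8 and 6. An offset of 50 left 5 list genes higher and 4 lower. Median scaling gave 1610 and 465 over all probes, and 13 list genes higher and 4 lower. It moved the difference between the changes of Stim2 and Stim1 to 0.37 (adjusted exact permutation p = 0.0286). On leaving out each array in turn, the difference between Itpr3 and Itpr1 ran from 3.42 to 4.02 and that between Ryr3 and Ryr1 from -1.17 to -0.69; neither passed the exact permutation test there, since 4 against 3 arrays allow no p under 0.0571. Without background correction, the difference between Ryr3 and Ryr1 was -0.57 and that between Stim2 and Stim1 0.036. Within rats, an exact sign-flip permutation test added after seeing the data did not pass for the differences between Itpr3 and Itpr1 (3.63) and between Ryr3 and Ryr1 (-0.94), each with adjusted p = 0.19, where 4 rats allow no p under 0.125; for Stim2 and Stim1 (0.23) adjusted p was 0.25. The paired fit, with the rat as a replicate block, called the same 6 members and, of the lists, 8 genes higher and 6 lower; over all probes it called 1037 higher and 713 lower. With it, Itpr3 passed the adjusted p (0.029) but not 1.8-fold. For the 48 single genes and probes, 711 of 760 alternative values kept their side of the threshold, 42 lost it, 7 gained it and 0 reversed. The cause of these shifts was not tested. Probes near background limit what the ryanodine receptors, Itpr2 and Itpr3 can show.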
